A study of Mus musculus with 9 samples.

Results

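The 47 genes described here code for the machinery of autophagy and for the lysosome that receives its cargo. They were chosen by name, as the rows of the deposited table of estimated counts whose symbol was on a list of autophagy and lysosome genes. The rule itself uses no measured value, but the list was drawn up with earlier results of these data known. All 47 were found among the 53647 genes of the table, and all 47 passed the filter on low counts that left 13661 genes for testing. They comprise 5 selective autophagy receptors, 5 members of the ATG8 family, 18 genes of the core machinery, 5 genes of the MiT/TFE transcription factors and the FLCN complex, 9 lysosomal hydrolases and 5 lysosomal membrane proteins or subunits of the proton pump.

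Autophagy carries parts of the cytoplasm to the lysosome. The ULK kinase complex and a class III phosphatidylinositol 3-kinase start a membrane that grows by lipid transfer, small ubiquitin-like ATG8 proteins are attached to that membrane by an E1-E2-E3-like conjugation cascade, and receptors such as p62 bind both ATG8 proteins and ubiquitin-tagged cargo. The closed autophagosome then fuses with a lysosome, which the V-ATPase keeps acidic for its hydrolases. When the kinase complex mTORC1 is active at the lysosome it restrains both the ULK complex and the MiT/TFE factors (TFEB, TFE3 and MITF), which transcribe many lysosomal and autophagy genes. In the liver this pathway degrades mitochondria, glycogen and lipid droplets.

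The study concerned the deubiquitinase USP5 and the m6A reader YTHDF1, a protein that binds N6-methyladenosine in mRNA, and sequenced poly(A) RNA from Hepa 1-6, a mouse hepatoma cell line grown in DMEM with serum. The groups were Usp5 knockout cells made with a lentiviral CRISPR vector (guide sgUsp5), Ythdf1 knockout cells made with CRISPR/Cas9/EGFP plasmids (guide sgYthdf1), and control cells (guide sgControl), with 3 samples in each. The labels describe knockout cells as picked single-cell clones. They do not give the number of clones behind the 3 samples of a group, nor say that these came from separate cultures. The effect of a knockout and that of the picked clone therefore cannot be told apart. Delivery by lentiviral vector or by plasmid also differed between the knockouts, and its effect cannot be told apart either. The p-values reflect how far these 9 samples spread within their groups, a spread that may be technical.

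The libraries held between 24760877 and 42989715 counts. The targeted genes followed their labels: Usp5 mRNA lay at 110 to 123 CPM (counts scaled to library size with TMM factors) in the Usp5 knockout, against 184 to 234 CPM in the control, and Ythdf1 mRNA at 45.7 to 49.9 CPM in the Ythdf1 knockout, against 181 to 195 CPM in the control. Of the hepatoma markers, Alb, Afp, Hnf4a, Krt8 and Krt18 were abundant in every library, while Apoa1 and Ttr stayed at or below 1.26 CPM. The 7 together summed to 3750 to 3950 CPM in the control. In the Usp5 knockout that sum was 4630 to 4830 CPM, and in the Ythdf1 knockout 5510 to 5560 CPM. A list of 10 macrophage and leukocyte markers summed to 30.1 to 34.4 CPM in the Usp5 knockout, 58.0 to 65.8 CPM in the Ythdf1 knockout and 36.4 to 39.4 CPM in the control, of which Cd14 made up the larger part. Tyrobp and Cd3e had 0 counts in all 9 libraries and Ptprc at most 0.264 CPM. Endothelial markers and stellate cell or fibroblast markers each summed to at most 2.15 CPM. GC content was rank-correlated across genes with each library's deviation from its group mean. By replicate number, control libraries gave 0.5, 0.088 and -0.369. Usp5 knockout libraries gave 0.443, -0.055 and -0.416, and Ythdf1 knockout libraries 0.285, -0.447 and 0.351. GC-rich genes were thus lowest in control replicate 3, Usp5 knockout replicate 3 and Ythdf1 knockout replicate 2. Only the Ythdf1 library stood apart from the others of its group. Control replicate 1 and Usp5 knockout replicate 1 deviated further, towards higher GC-rich genes, than replicate 3 did towards lower. The trend on GC content is taken up beside the results it touches.

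Most of these genes were higher in the Ythdf1 knockout, and few moved in the Usp5 knockout. In the Ythdf1 knockout 28 of the 47 rose and 6 fell at an adjusted p under 0.05 (edgeR's quasi-likelihood test with Benjamini-Hochberg adjustment over all 13661 genes, which also gives every adjusted p that follows). Those 34 genes were 72.3% of the list, whereas 46.5% of all tested genes were called in this comparison, 23.7% of them higher and 22.8% lower. In the Usp5 knockout 3 genes rose and 8 fell, or 23.4% of the list, close to the 19.8% called among all genes (9.96% higher and 9.8% lower). The median log2 fold change over the list was 0.379 in the Ythdf1 knockout and -0.136 in the Usp5 knockout, beside 0.0211 and -0.0123 over all genes. Both comparisons used the same 3 control samples. Samples of the Ythdf1 knockout and the control did not overlap in 39 of the 47 genes, beside 57.1% of all tested genes. Between the Usp5 knockout and the control 18 of the 47 did not overlap, beside 33.2% of all, and between the knockouts 35, beside 59%. A lack of overlap between groups was thus common over all genes. As these are bulk samples, fewer cells of a type and less RNA per cell cannot be told apart.

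**Figure D1:**
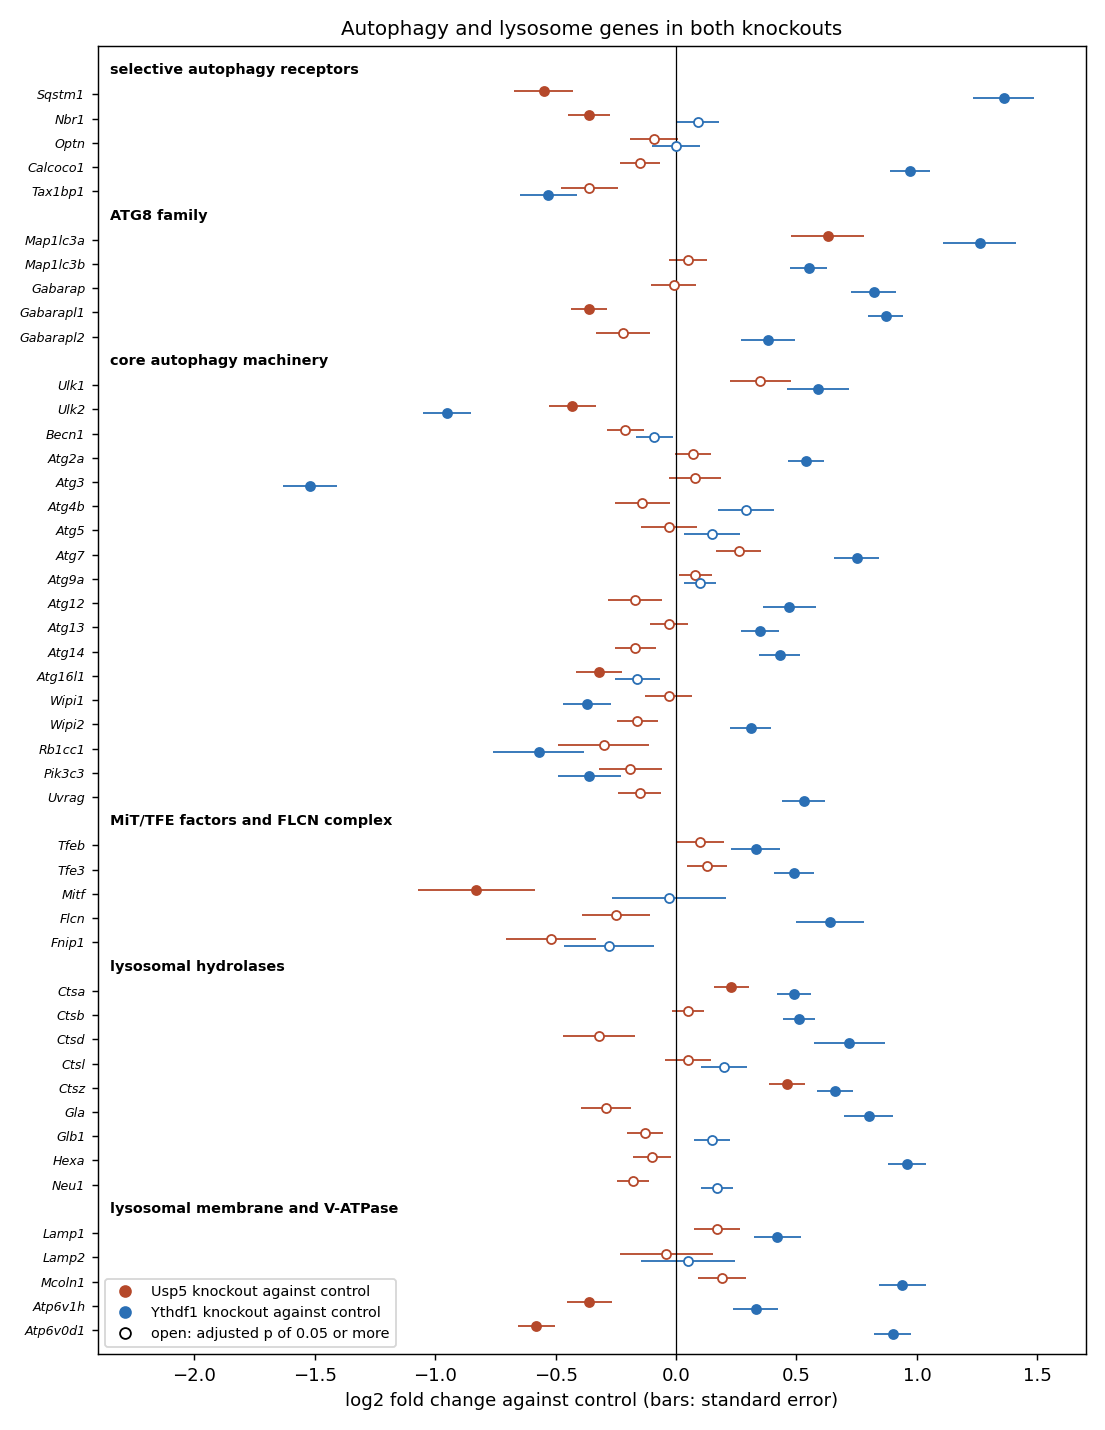
Log2 fold change against control (horizontal axis, bars show the standard error) of each of the 47 genes in the Usp5 knockout and the Ythdf1 knockout, grouped by role, with open circles where the adjusted p was 0.05 or more. The Ythdf1 knockout points lie mainly right of 0, from -1.52 for Atg3 to 1.36 for Sqstm1, and the Usp5 knockout points lie between -0.83 and 0.63.

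The calls in the Ythdf1 knockout were then counted by class. All 5 ATG8 family genes rose, as did 6 of the 9 hydrolases and 4 of the 5 membrane and pump genes, and none of these 19 genes fell. Among the 18 core genes 8 rose and 5 fell, and among the 5 receptors 2 rose and 1 fell. The core genes that fell numbered 3 without Ythdf1 knockout replicate 1 or 3 or without control replicate 2 or 3, and 3 after a correction for GC content and gene length, after which no receptor was called lower. Every hydrolase and every membrane or pump gene had a log2 fold change above 0, with a median of 0.508 for the hydrolases and 0.418 for the membrane and pump genes, whereas the core genes had a median of 0.22 and a range from -1.52 to 0.75. Computed sample by sample, the median difference of the ATG8 genes from the control mean was 0.878, 0.754 and 0.849 log2 units in the Ythdf1 knockout samples, against 0.022, 0.021 and -0.043 in the control samples. The hydrolases gave 0.501, 0.501 and 0.52 in the Ythdf1 knockout, against 0.044, -0.008 and -0.059 in the control.

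**Figure D2:**
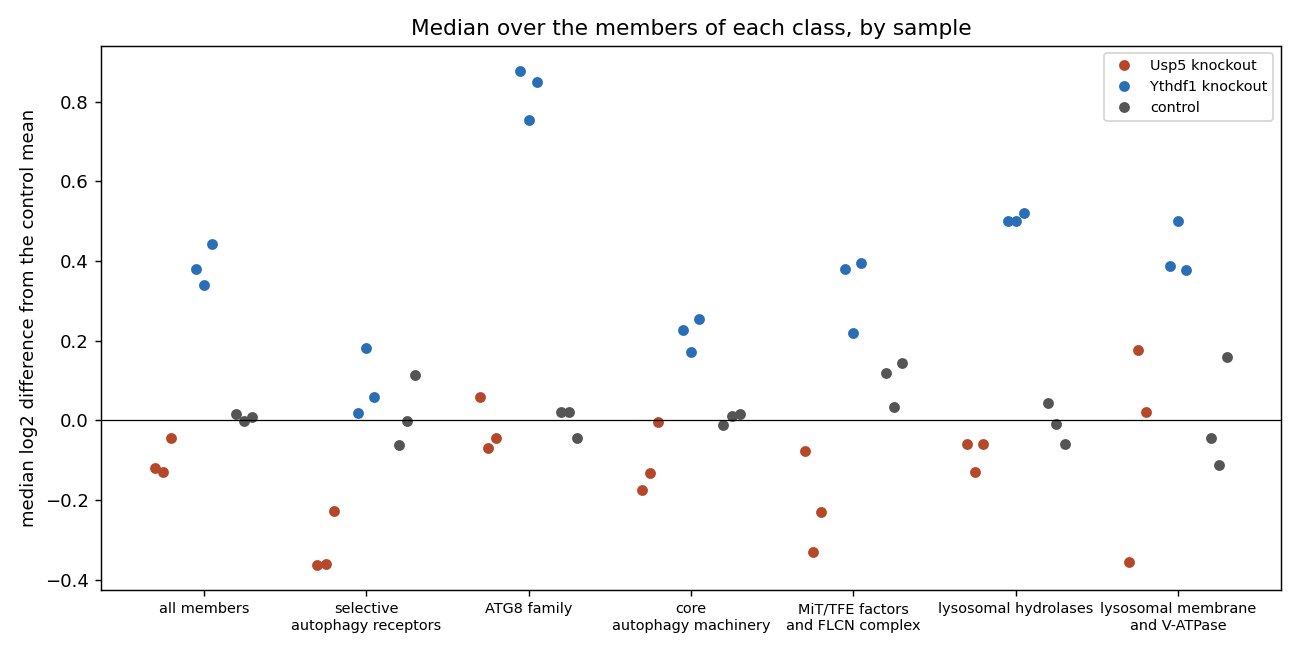
Median over the genes of each class of the log2 difference from the control mean (vertical axis), with 1 point per sample. The 3 Ythdf1 knockout samples lie above the 3 control samples in every class but the receptors, where 0.018 to 0.182 in the Ythdf1 knockout overlaps -0.061 to 0.113 in the control.

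The receptors were led by Sqstm1, which codes for p62, the receptor that binds ubiquitinated cargo and ATG8 proteins and is itself degraded by autophagy. Its normalised expression was 515, 419 and 437 CPM in the Usp5 knockout, 1740, 1564 and 1834 CPM in the Ythdf1 knockout and 735, 708 and 560.4 CPM in the control. The 3 groups did not overlap: every Ythdf1 knockout sample lay above every control sample, and every Usp5 knockout sample below. Sqstm1 rose in the Ythdf1 knockout, with a log2 fold change of 1.36 (SE 0.126, adjusted p = 3.2e-05), the largest rise in the list. It fell in the Usp5 knockout, with a log2 fold change of -0.55 (SE 0.124, adjusted p = 0.0123), and with the correction for GC content and length at -0.57 (adjusted p = 0.000825). Over the 9 fits that left out 1 library the fold change ran from -0.66 to -0.47, and in 3 of them the call was lost. Without Usp5 knockout replicate 2 the log2 fold change was -0.49 (adjusted p = 0.0561), without control replicate 1 it was -0.47 (adjusted p = 0.0505) and without control replicate 2 it was -0.5 (adjusted p = 0.0524).

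The Sqstm1 promoter is shown because this gene rose most. It is given from RefSeq in build GRCm38.p6 as the 250 bases before and 50 bases after the start, at chr11:50210771-50211070 on the minus strand. The sequence, in lower case, holds none of the 4 motifs searched on either strand (the E-box, its extended form, the amino acid response element and the antioxidant response element, whose letters are given with the promoter search).
Sqstm1 promoter: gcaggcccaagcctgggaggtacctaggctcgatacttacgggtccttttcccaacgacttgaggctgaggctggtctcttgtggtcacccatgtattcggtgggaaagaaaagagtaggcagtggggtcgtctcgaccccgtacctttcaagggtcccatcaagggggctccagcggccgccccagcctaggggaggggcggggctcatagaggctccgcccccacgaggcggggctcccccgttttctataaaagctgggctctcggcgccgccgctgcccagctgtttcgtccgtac

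Calcoco1, a receptor for autophagy of the endoplasmic reticulum and Golgi, had 54.6, 56.0 and 49.4 CPM in the Usp5 knockout, 111, 118 and 117 CPM in the Ythdf1 knockout and 59.2, 54.3 and 63.8 CPM in the control. The Ythdf1 knockout was higher, with a log2 fold change of 0.97 (SE 0.083, adjusted p = 2.21e-05). Its value in the Usp5 knockout overlapped the control (log2 fold change -0.15, adjusted p = 0.242). Tax1bp1, a receptor for ubiquitinated aggregates, went the other way, with 82.9, 78.5 and 94.7 CPM in the Usp5 knockout, 72.0, 87.4 and 68.1 CPM in the Ythdf1 knockout and 97.6, 109.7 and 122 CPM in the control. All 3 Ythdf1 knockout samples lay below the control samples and overlapped the Usp5 knockout samples, and Tax1bp1 fell in the Ythdf1 knockout with a log2 fold change of -0.53 (SE 0.119, adjusted p = 0.00454). After a correction for GC content and gene length that fold change was -0.12 (adjusted p = 0.211). In the Usp5 knockout Tax1bp1 stood at -0.36 (adjusted p = 0.0567) and was not called, although its samples lay below every control sample. With the same correction it was called lower there, at -0.25 (adjusted p = 0.0305). Nbr1, which works alongside p62, fell in the Usp5 knockout, with a log2 fold change of -0.36 (SE 0.0872, adjusted p = 0.0162), and stood at 0.09 on the log2 scale in the Ythdf1 knockout (adjusted p = 0.437). The Nbr1 call was lost without Usp5 knockout replicate 1 (-0.29, adjusted p = 0.0612), Usp5 knockout replicate 2 (-0.36, adjusted p = 0.0618) or control replicate 2 (-0.36, adjusted p = 0.0564). Optn, the receptor optineurin, was not called in either knockout, with log2 fold changes in the Usp5 knockout of -0.09 and of 0.00 in the Ythdf1 knockout.

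Sqstm1 was also the most abundant receptor transcript per length in every library. As a share of the summed CPM per kilobase of the 5 receptors it made up 71.8% ± 2.85 in the Usp5 knockout, 87.9% ± 1.41 in the Ythdf1 knockout and 75.7% ± 4.4 in the control (SD, n = 3 each). Its share ranged from 86.3% to 88.9% in the Ythdf1 knockout samples, against 70.6% to 78.6% in the control samples.

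The ATG8 family provides the proteins that coat the autophagosome membrane and dock receptors, in an LC3 branch (Map1lc3a, Map1lc3b) and a GABARAP branch (Gabarap, Gabarapl1, Gabarapl2). Map1lc3a had 30.2, 35.0 and 22.5 CPM in the Usp5 knockout, 46.9, 41.6 and 47.7 CPM in the Ythdf1 knockout and 19.1, 16.6 and 21.2 CPM in the control. Both knockouts lay above the control without overlap, and the Ythdf1 knockout above the Usp5 knockout. Map1lc3a rose in the Ythdf1 knockout, with a log2 fold change of 1.26 (SE 0.153, adjusted p = 0.000145), and in the Usp5 knockout, with a log2 fold change of 0.63 (SE 0.152, adjusted p = 0.0166). The second of these calls was lost without Usp5 knockout replicate 2 (0.48, adjusted p = 0.0665) and without control replicate 2 (0.54, adjusted p = 0.079).

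Map1lc3b, the LC3 gene whose protein is the usual autophagosome marker, had 159, 167 and 149 CPM in the Usp5 knockout, 227, 222 and 224 CPM in the Ythdf1 knockout and 161, 157 and 142 CPM in the control. Higher expression in the Ythdf1 knockout gave a log2 fold change of 0.55 (SE 0.0781, adjusted p = 0.000342), while the Usp5 knockout samples lay within or just above the control range (0.05, adjusted p = 0.708). Gabarap had 137, 125 and 130.3 CPM in the Usp5 knockout, 241, 221 and 236 CPM in the Ythdf1 knockout and 128, 118 and 148 CPM in the control. It likewise rose in the Ythdf1 knockout, with a log2 fold change of 0.82 (SE 0.0927, adjusted p = 9.54e-05), and overlapped the control in the Usp5 knockout. Gabarapl1 separated all 3 groups, with 61.2, 55.8 and 53.6 CPM in the Usp5 knockout, 136, 127 and 137 CPM in the Ythdf1 knockout and 74.1, 74.1 and 70.8 CPM in the control. It rose in the Ythdf1 knockout, with a log2 fold change of 0.87 (SE 0.0742, adjusted p = 2.06e-05), and fell in the Usp5 knockout, with a log2 fold change of -0.36 (SE 0.0742, adjusted p = 0.00739), and both calls were kept whichever single library was left out. Gabarapl2 rose in the Ythdf1 knockout, with a log2 fold change of 0.38 (SE 0.112, adjusted p = 0.0188). That call was lost without Ythdf1 knockout replicate 1 (0.32, adjusted p = 0.0951) or replicate 3 (0.3, adjusted p = 0.108).

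Per length, Gabarap and Map1lc3b were the most abundant ATG8 transcripts in every group. Gabarap made up 34.4% ± 1.52 of the family's summed CPM per kilobase in the Usp5 knockout, 36.3% ± 0.31 in the Ythdf1 knockout and 33.9% ± 3.69 in the control (SD, n = 3 each). The share of Map1lc3b was 30.7% ± 1.47 in the Usp5 knockout, 25.8% ± 0.82 in the Ythdf1 knockout and 29.2% ± 1.98 in the control. Map1lc3a held the smallest share in every group, 9.23% ± 1.81 in the Usp5 knockout, 8.53% ± 0.287 in the Ythdf1 knockout and 5.9% ± 0.656 in the control. Gabarapl1 made up 12.3% to 13.1% in the Usp5 knockout samples and 17.5% to 17.7% in the Ythdf1 knockout samples, against 15.4% to 16.5% in the control samples, so that its share differed in opposite directions from the control in the knockouts.

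**Figure D3:**
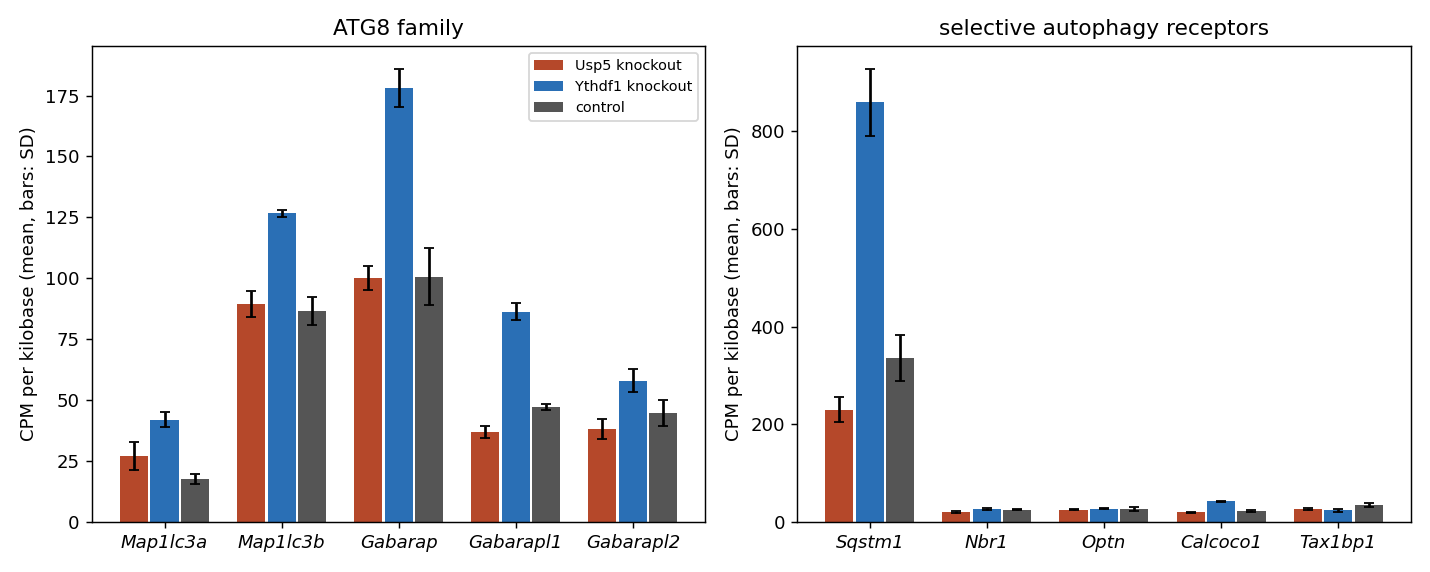
Mean CPM per kilobase of transcript (vertical axis, bars show SD, n = 3) of the ATG8 family genes and of the selective autophagy receptors in the Usp5 knockout, the Ythdf1 knockout and the control. All 5 ATG8 genes were highest in the Ythdf1 knockout, and Sqstm1 reached 860 ± 68.9 there, against 335 ± 47.1 in the control.

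Within the core machinery, the genes of the initiating ULK complex split. Ulk1, the kinase that starts autophagosome formation, had 52.0, 65.1 and 54.4 CPM in the Usp5 knockout, 70.1, 68.7 and 64.0 CPM in the Ythdf1 knockout and 43.5, 37.9 and 53.3 CPM in the control. Its rise in the Ythdf1 knockout came to a log2 fold change of 0.59 (SE 0.129, adjusted p = 0.00381), and stood at 0.35 on the log2 scale in the Usp5 knockout (adjusted p = 0.0798). Its paralog Ulk2 had 17.8, 21.1 and 22.3 CPM in the Usp5 knockout, 13.9, 14.4 and 14.4 CPM in the Ythdf1 knockout and 26.4, 26.8 and 29.2 CPM in the control. Ulk2 fell in both knockouts, with a log2 fold change of -0.95 (SE 0.0999, adjusted p = 6.45e-05) in the Ythdf1 knockout and a log2 fold change of -0.43 (SE 0.0979, adjusted p = 0.0124) in the Usp5 knockout, and was the only one of the 47 called lower in both. In the direct comparison it was higher in the Usp5 knockout than in the Ythdf1 knockout (log2 fold change 0.52, adjusted p = 0.00193). The correction for GC content and length took that direct difference to 0.24 (adjusted p = 0.0209). Atg13, the adaptor of the complex, rose in the Ythdf1 knockout, with a log2 fold change of 0.35 (SE 0.0787, adjusted p = 0.005). With scaling by library sizes alone Atg13 was at 0.2 (adjusted p = 0.097), and the call was lost. Rb1cc1, its scaffold FIP200, had 30.3, 36.4 and 42.3 CPM in the Usp5 knockout, 28.2, 36.2 and 26.3 CPM in the Ythdf1 knockout and 35.6, 41.8 and 57.3 CPM in the control. Although called lower in the Ythdf1 knockout, with a log2 fold change of -0.57 (SE 0.19, adjusted p = 0.0316), its values overlapped the control. The call was lost without Ythdf1 knockout replicate 1 (-0.55, adjusted p = 0.0882), Ythdf1 knockout replicate 3 (-0.51, adjusted p = 0.0983), control replicate 2 (-0.62, adjusted p = 0.0513) or control replicate 3 (-0.36, adjusted p = 0.0933). After the correction for GC content and length it was 0.02 (adjusted p = 0.879).

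The phosphatidylinositol 3-kinase complex that marks the growing membrane was measured through its catalytic subunit Pik3c3, its scaffold Becn1 and the alternative subunits Atg14, which serves autophagosome formation, and Uvrag, which serves endosomes and later maturation. Uvrag had 29.4, 32.8 and 35.8 CPM in the Usp5 knockout, 50.0, 53.4 and 53.6 CPM in the Ythdf1 knockout and 37.4, 37.2 and 34.1 CPM in the control. All 3 Ythdf1 knockout samples lay above the rest, and Uvrag rose there with a log2 fold change of 0.53 (SE 0.0891, adjusted p = 0.000937). Atg14 rose in the Ythdf1 knockout as well, with a log2 fold change of 0.43 (SE 0.0846, adjusted p = 0.00225). Becn1 was not called in either knockout, with log2 fold changes in the Usp5 knockout of -0.21 (adjusted p = 0.0726) and of -0.09 in the Ythdf1 knockout (adjusted p = 0.336). Pik3c3 passed in the Ythdf1 knockout at a log2 fold change of -0.36 (SE 0.132, adjusted p = 0.0471). Leaving out any single Ythdf1 knockout or control library ended the Pik3c3 call, with adjusted p between 0.0579 and 0.111.

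Membrane growth depends on the lipid transfer protein ATG2, the scramblase ATG9 and the WIPI proteins that recruit them. Atg2a had 51.2, 53.3 and 47.6 CPM in the Usp5 knockout, 71.0, 66.2 and 74.1 CPM in the Ythdf1 knockout and 49.2, 47.2 and 48.5 CPM in the control. Expression rose in the Ythdf1 knockout, with a log2 fold change of 0.54 (SE 0.0761, adjusted p = 0.00031), and overlapped the control in the Usp5 knockout. ATG2A and ATG14 are among the transcripts that YTHDF1 has been described to bind in human liver cancer cells. Atg9a was not called in either knockout (log2 fold changes 0.08 in the Usp5 knockout and 0.10 in the Ythdf1 knockout). The WIPI genes moved apart: Wipi1 fell in the Ythdf1 knockout, with a log2 fold change of -0.37 (SE 0.0982, adjusted p = 0.0113), and Wipi2 rose, with a log2 fold change of 0.31 (SE 0.0851, adjusted p = 0.0139). The Wipi2 call was lost without Ythdf1 knockout replicate 1 (0.26, adjusted p = 0.0845) or replicate 3 (0.26, adjusted p = 0.0897).

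The conjugation cascade held the largest fall of the list. Atg3 codes for the E2-like enzyme that transfers ATG8 proteins to phosphatidylethanolamine, and had 104, 113 and 104 CPM in the Usp5 knockout, 36.0, 34.5 and 35.0 CPM in the Ythdf1 knockout and 88.5, 94.2 and 121 CPM in the control. The Ythdf1 knockout samples lay far below both other groups, which overlapped each other. Atg3 fell in the Ythdf1 knockout to 34.8% of the control level, with a log2 fold change of -1.52 (SE 0.111, adjusted p = 7.87e-06), and stood at 0.08 on the log2 scale in the Usp5 knockout (adjusted p = 0.627). The E1-like enzyme Atg7, which acts just before it, had 139.8, 125 and 123 CPM in the Usp5 knockout, 182, 172 and 192 CPM in the Ythdf1 knockout and 113, 115 and 96.1 CPM in the control. Atg7 moved opposite to Atg3 and rose in the Ythdf1 knockout, with a log2 fold change of 0.75 (SE 0.0928, adjusted p = 0.000163). All 3 Atg7 values of the Usp5 knockout were above the control values, at a log2 fold change of 0.26 that missed the threshold (adjusted p = 0.0764).

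Of the E3-like complex, Atg12, the ubiquitin-like partner of ATG5, rose in the Ythdf1 knockout, with a log2 fold change of 0.47 (SE 0.11, adjusted p = 0.00614). Atg5 was not called in either knockout, at -0.03 in the Usp5 knockout and 0.15 in the Ythdf1 knockout on the log2 scale. Atg16l1, which places the complex on the membrane, fell in the Usp5 knockout, with a log2 fold change of -0.32 (SE 0.094, adjusted p = 0.038), and was not called in the Ythdf1 knockout (-0.16, adjusted p = 0.196). Leaving out Usp5 knockout replicate 1 or 2, Ythdf1 knockout replicate 1 or 3, or control replicate 1 or 2 ended the Atg16l1 call (adjusted p between 0.0552 and 0.143). Atg4b, the protease that primes ATG8 proteins, was not called against control, at -0.14 in the Usp5 knockout and 0.29 in the Ythdf1 knockout (adjusted p = 0.441 and 0.0604).

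The Atg3 promoter is shown because this gene fell most. It is given from RefSeq in build GRCm38.p6 at chr16:45158579-45158878 on the plus strand, with capitals marking 2 matches to TCACGTG, the second of which reads TCACGTGA and so matches on both strands.
Atg3 promoter: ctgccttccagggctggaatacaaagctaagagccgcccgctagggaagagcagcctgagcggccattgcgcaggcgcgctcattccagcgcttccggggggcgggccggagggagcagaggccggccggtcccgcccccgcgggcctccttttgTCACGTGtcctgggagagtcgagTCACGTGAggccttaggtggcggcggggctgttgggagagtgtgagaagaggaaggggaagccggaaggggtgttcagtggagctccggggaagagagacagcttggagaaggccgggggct

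The MiT/TFE factors bind such E-boxes when mTORC1 no longer holds them in the cytoplasm, and folliculin (Flcn) with Fnip1 is the complex through which mTORC1 holds them. Tfeb had 33.1, 31.7 and 28.9 CPM in the Usp5 knockout, 38.0, 34.0 and 38.5 CPM in the Ythdf1 knockout and 31.6, 30.2 and 25.8 CPM in the control. It rose in the Ythdf1 knockout, with a log2 fold change of 0.33 (SE 0.0997, adjusted p = 0.0199). That small difference was lost without Usp5 knockout replicate 2 (0.3, adjusted p = 0.0504), Ythdf1 knockout replicate 1 (0.28, adjusted p = 0.102) or Ythdf1 knockout replicate 3 (0.27, adjusted p = 0.108). Corrected for GC content and length, it was 0.00 (adjusted p = 0.983). Tfe3 rose in the Ythdf1 knockout, with a log2 fold change of 0.49 (SE 0.0832, adjusted p = 0.00101), in every fit that left out a library. Flcn had 43.8, 36.6 and 38.1 CPM in the Usp5 knockout, 75.6, 65.3 and 78.8 CPM in the Ythdf1 knockout and 54.5, 48.9 and 36.9 CPM in the control. Against control it rose in the Ythdf1 knockout, with a log2 fold change of 0.64 (SE 0.14, adjusted p = 0.00381), while the Usp5 knockout overlapped the control.

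Mitf was the least abundant of the 47 genes per length in every group, with 1.41, 2.38 and 1.73 CPM in the Usp5 knockout, 2.78, 3.56 and 3.21 CPM in the Ythdf1 knockout and 3.78, 2.39 and 3.58 CPM in the control. The Usp5 knockout samples were the lowest, although the highest of them and the lowest control sample nearly met. Mitf fell in the Usp5 knockout, with a log2 fold change of -0.83 (SE 0.243, adjusted p = 0.0377), and stood at -0.03 on the log2 scale in the Ythdf1 knockout (adjusted p = 0.937). The call was lost without Usp5 knockout replicate 1 or 3, Ythdf1 knockout replicate 1 or 3, or control replicate 1 or 3, with adjusted p between 0.0528 and 0.13. Fnip1 was not called against control, at -0.52 in the Usp5 knockout and -0.28 in the Ythdf1 knockout. Its Ythdf1 knockout value turned to 0.3 (adjusted p = 0.0135) with the correction for GC content and length. With that correction the Usp5 knockout value was -0.39 (adjusted p = 0.00664) and the direct difference was -0.7 (adjusted p = 9.77e-05).

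Of the hydrolases 6 rose in the Ythdf1 knockout, across proteases and glycosidases. Ctsd, the aspartic protease cathepsin D, had 616, 500.4 and 512 CPM in the Usp5 knockout, 1174, 983 and 1189 CPM in the Ythdf1 knockout and 772, 732 and 529.5 CPM in the control. The rise in the Ythdf1 knockout had a log2 fold change of 0.72 (SE 0.149, adjusted p = 0.00299), and the Usp5 knockout overlapped the control at -0.32 (adjusted p = 0.154). In the Usp5 knockout Ctsd was called lower with the correction for GC content and length (-0.36, adjusted p = 0.0295). It was also called lower there without control replicate 3 (-0.47, adjusted p = 0.0103). Ctsb, cathepsin B, had 264, 268 and 255 CPM in the Usp5 knockout, 358, 358 and 363 CPM in the Ythdf1 knockout and 253, 250.3 and 256 CPM in the control. Its samples varied little within a group, and it rose in the Ythdf1 knockout with a log2 fold change of 0.51 (SE 0.066, adjusted p = 0.000211). Ctsz, cathepsin Z, had 492, 456 and 446 CPM in the Usp5 knockout, 548, 526 and 532 CPM in the Ythdf1 knockout and 352, 332 and 332 CPM in the control. Both knockouts lay above the control without overlap, so that Ctsz rose in the Usp5 knockout, with a log2 fold change of 0.46 (SE 0.0741, adjusted p = 0.00193), and in the Ythdf1 knockout, with a log2 fold change of 0.66 (SE 0.0742, adjusted p = 9.51e-05). Ctsa, the protective protein of the sialidase and beta-galactosidase, rose in both knockouts too, with a log2 fold change of 0.49 (SE 0.0713, adjusted p = 0.000398) in the Ythdf1 knockout and a log2 fold change of 0.23 (SE 0.0712, adjusted p = 0.0432) in the Usp5 knockout. With the correction for GC content and length Ctsa stood at 0.18 in the Ythdf1 knockout (adjusted p = 0.148) and at 0.2 in the Usp5 knockout (adjusted p = 0.139), and neither call held. Without any 1 of the 7 libraries other than Usp5 knockout replicate 3 and control replicate 3, the Ctsa call in the Usp5 knockout was lost (adjusted p between 0.0623 and 0.163). Ctsl, the most abundant of the 47 transcripts per length in the control, was not called in the Usp5 knockout (0.05) or the Ythdf1 knockout (0.20, adjusted p = 0.104).

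Among the glycosidases, Hexa, the alpha subunit of beta-hexosaminidase, had 60.1, 53.9 and 61.1 CPM in the Usp5 knockout, 129, 116 and 121 CPM in the Ythdf1 knockout and 64.6, 63.9 and 59.5 CPM in the control. Its level in the Ythdf1 knockout was 1.95 times that of the control, with a log2 fold change of 0.96 (SE 0.0785, adjusted p = 1.62e-05). Gla, alpha-galactosidase A, had 10.9, 9.94 and 11.1 CPM in the Usp5 knockout, 24.2, 20.1 and 23.5 CPM in the Ythdf1 knockout and 14.1, 12.5 and 12.4 CPM in the control. It rose in the Ythdf1 knockout, with a log2 fold change of 0.80 (SE 0.102, adjusted p = 0.000197). Every Gla value of the Usp5 knockout lay below the control values, at -0.29 on the log2 scale, which missed the threshold (adjusted p = 0.0751). Glb1, beta-galactosidase, and Neu1, the sialidase, were not called in either knockout against control. On the log2 scale Glb1 stood at -0.13 in the Usp5 knockout and at 0.15 in the Ythdf1 knockout, and Neu1 at -0.18 in the Usp5 knockout and at 0.17 in the Ythdf1 knockout.

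The lysosomal membrane genes moved unevenly. Lamp1, which codes for an abundant membrane glycoprotein, had 788, 858 and 892 CPM in the Usp5 knockout, 984, 1064 and 977 CPM in the Ythdf1 knockout and 729, 688 and 847 CPM in the control. Its level rose in the Ythdf1 knockout, with a log2 fold change of 0.42 (SE 0.0973, adjusted p = 0.0056), but with the correction for GC content and length it was 0.27 (adjusted p = 0.0706). Lamp2, its partner, was not called in the Usp5 knockout (-0.04) or the Ythdf1 knockout (0.05), and its control samples spread from 132 to 210 CPM. With the correction for GC content and length Lamp2 was called higher in the Ythdf1 knockout, at 0.47 (adjusted p = 0.0059). In the direct comparison it was then lower in the Usp5 knockout, at -0.39 (adjusted p = 0.0127). Mcoln1, the calcium channel TRPML1, had 37.7, 38.9 and 32.3 CPM in the Usp5 knockout, 62.1, 58.9 and 62.4 CPM in the Ythdf1 knockout and 30.8, 29.4 and 35.6 CPM in the control. The Ythdf1 knockout samples lay well above both other groups, and Mcoln1 rose there with a log2 fold change of 0.94 (SE 0.0991, adjusted p = 6.52e-05).

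Both V-ATPase subunits on the list separated all 3 groups. Atp6v0d1, a subunit of the membrane sector that couples it to the rotor, had 36.2, 36.2 and 34.8 CPM in the Usp5 knockout, 103, 94.0 and 101 CPM in the Ythdf1 knockout and 56.3, 54.4 and 49.3 CPM in the control. Relative to control it rose in the Ythdf1 knockout, with a log2 fold change of 0.90 (SE 0.0766, adjusted p = 2.12e-05), and fell in the Usp5 knockout, with a log2 fold change of -0.58 (SE 0.077, adjusted p = 0.000578). Atp6v1h, a regulatory subunit of the ATP-hydrolysing sector, had 58.0, 62.4 and 68.5 CPM in the Usp5 knockout, 97.9, 102 and 104 CPM in the Ythdf1 knockout and 81.5, 88.7 and 72.5 CPM in the control. It rose in the Ythdf1 knockout, with a log2 fold change of 0.33 (SE 0.0919, adjusted p = 0.0147), and fell in the Usp5 knockout, with a log2 fold change of -0.36 (SE 0.0922, adjusted p = 0.0207). The rise of Atp6v1h was lost without any 1 of the Ythdf1 knockout libraries (adjusted p between 0.0566 and 0.0933). Its fall was lost without Usp5 knockout replicate 1 or 2 or control replicate 1 or 2 (adjusted p between 0.0627 and 0.0946), and with the correction for GC content and length it was -0.27 (adjusted p = 0.146).

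**Figure D4:**
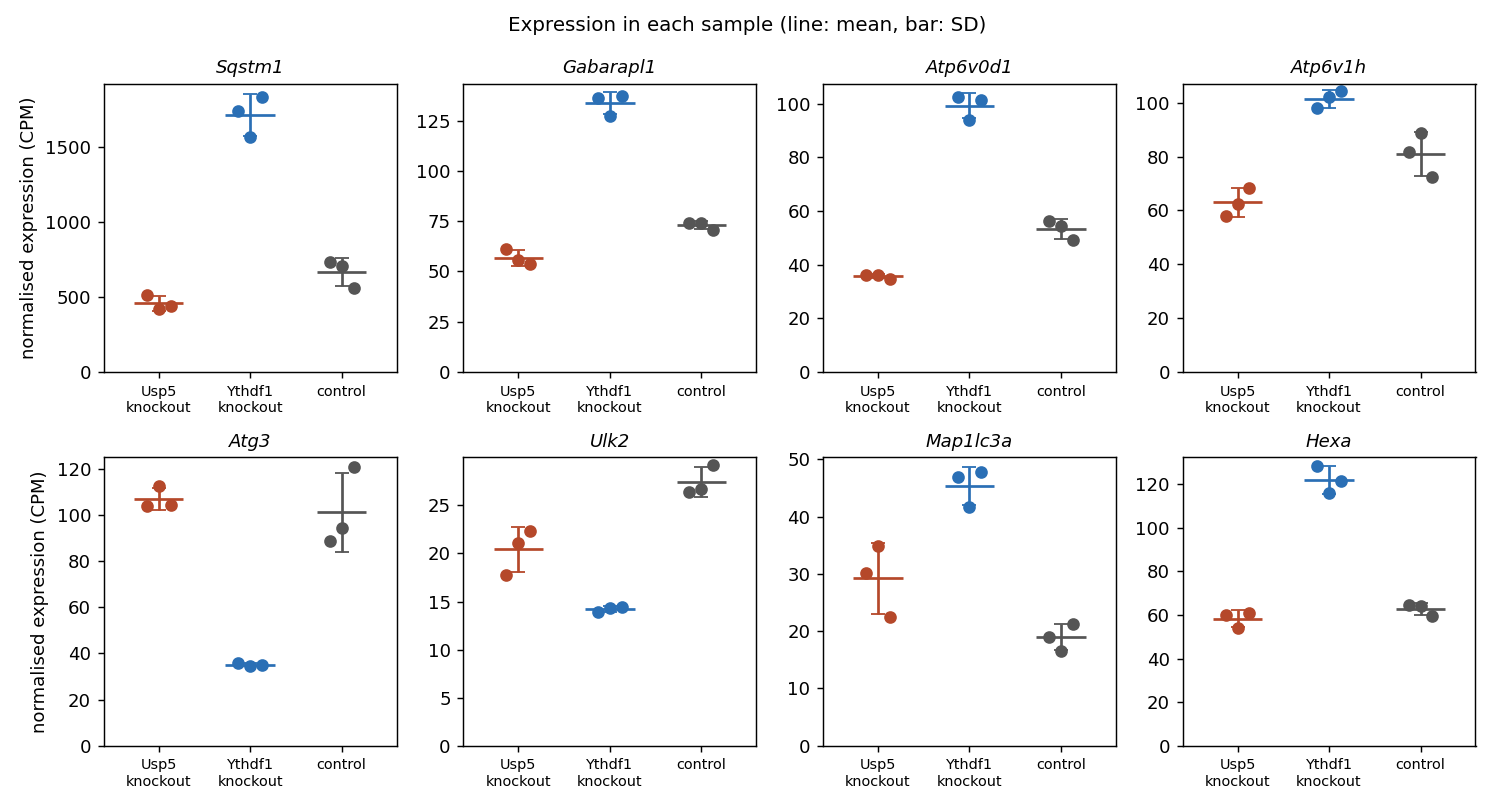
Normalised expression in CPM (vertical axes from 0) in each Usp5 knockout, Ythdf1 knockout and control sample for 8 of the genes, with the group mean as a line and the SD as a bar (n = 3). Sqstm1, Gabarapl1, Atp6v0d1 and Atp6v1h were lowest in the Usp5 knockout and highest in the Ythdf1 knockout, Atg3 and Ulk2 were lowest in the Ythdf1 knockout, and Map1lc3a and Hexa were highest there.

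Set against each other, the knockouts differed in most of these genes. In the Usp5 knockout relative to the Ythdf1 knockout 3 of the 47 genes were higher and 30 lower, or 70.2% of the list, against 48.5% of all genes (23.3% higher and 25.2% lower). The median log2 fold change over the list was -0.426, beside 0.000278 over all genes. The genes higher in the Usp5 knockout were Atg3 (1.61, adjusted p = 3.52e-06), Ulk2 (0.52, adjusted p = 0.00193) and Wipi1 (0.34, adjusted p = 0.0161). Without Ythdf1 knockout replicate 3 the call of Wipi1 was lost (0.29, adjusted p = 0.0584). The largest differences in the other direction were those of Sqstm1 (-1.91, adjusted p = 2.81e-06), Atp6v0d1 (-1.47, adjusted p = 5.9e-07) and Gabarapl1 (-1.23, adjusted p = 1.51e-06). Against the control samples that both comparisons share, 4 of the 47 genes (Sqstm1, Gabarapl1, Atp6v0d1 and Atp6v1h, 8.51% of the list) were called lower in the Usp5 knockout and higher in the Ythdf1 knockout, as were 1.93% of all genes, and none was called the other way round. Opposite calls in either order made up 3.13% of all genes. By class, 5 of 5 ATG8 genes, 8 of 9 hydrolases, 3 of 5 membrane and pump genes, 3 of 5 MiT/TFE and FLCN genes, 3 of 5 receptors and 8 of 18 core genes were lower in the Usp5 knockout than in the Ythdf1 knockout. Ctsa and Ctsz, counted among the 8 hydrolases, turned to 0.02 (adjusted p = 0.862) and 0.14 (adjusted p = 0.155) with the correction for GC content and length, and 6 hydrolases were then called lower. That correction also left 4 of 5 ATG8 genes lower, with Map1lc3a at -0.22 (adjusted p = 0.242), and 11 core genes. Without Ythdf1 knockout replicate 1, and with no filter on low counts, 5 hydrolases were called lower.

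Because the libraries differed in their trends on GC content and gene length, each library was also corrected for smooth trends on both. In the Ythdf1 knockout the corrected values gave 30 genes higher and 3 lower, with 28 of the 34 calls kept, 6 lost and 5 added. The calls lost were those of Tax1bp1, Rb1cc1 and Pik3c3 among the genes that had been lower and Tfeb, Ctsa and Lamp1 among those that had been higher, so that Ulk2, Atg3 and Wipi1 were the ones lower with and without the correction. The calls added were those of Nbr1, Atg5, Fnip1, Ctsl and Lamp2, all higher. Corrected, Nbr1 stood at 0.3 (adjusted p = 0.00184), Atg5 at 0.32 (adjusted p = 0.0152) and Ctsl at 0.3 (adjusted p = 0.0446). All 5 ATG8 genes and 4 of the 5 membrane and pump genes were called higher after it, and the corrected medians were 0.58 for the ATG8 family, 0.59 for the membrane and pump genes, 0.3 for the hydrolases and 0.215 for the core machinery. Among calls that held, the size fell by more than 1.5 times for Map1lc3a (to 0.73), Map1lc3b (to 0.34), Ctsd (to 0.44) and Ctsz (to 0.26), and grew as much for Atg12 (to 0.86) and Atp6v1h (to 0.59). In the Usp5 knockout 8 of the 11 calls were kept, 3 were lost (Atg16l1, Ctsa and Atp6v1h) and 5 were added. Those added were Atg7, which was higher, and Tax1bp1, Fnip1, Ctsd and Neu1, which were lower. Scaling by library sizes alone ended the Ythdf1 knockout calls of Gabarapl2 (0.23, adjusted p = 0.171), Wipi2 (0.16, adjusted p = 0.228), Tfeb (0.19, adjusted p = 0.199) and Atp6v1h (0.18, adjusted p = 0.206) besides that of Atg13.

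**Figure D5:**
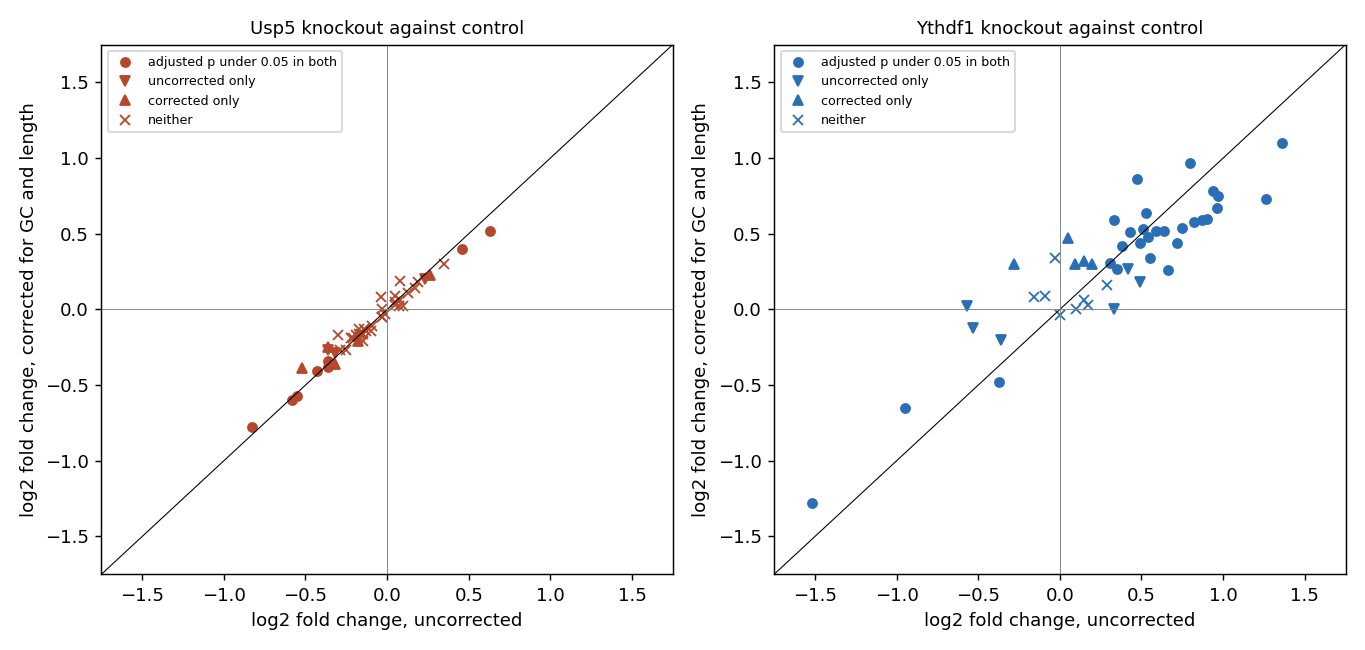
Log2 fold change of each of the 47 genes before (horizontal axis) and after (vertical axis) the correction for GC content and gene length, for the Usp5 knockout and the Ythdf1 knockout against control, with the diagonal marking equal values and the symbols showing which values passed an adjusted p of 0.05. The Usp5 knockout points follow the diagonal, and the Ythdf1 knockout points scatter around it. There Rb1cc1, Fnip1, Becn1, Atg16l1 and Mitf moved from below 0 to above it, the last 3 without a call before or after the correction.

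The promoters of the list were searched for the E-box CACGTG and its extended form TCACGTG, the core of the element that MiT/TFE factors bind in lysosomal genes, on both strands. RefSeq promoters of 300 bases were matched by symbol for 39 of the 47 genes. The extended form, every match of which is also a match of the E-box, was found in 11 of the 39 (28.2%), against 4.29% of the 27025 genes in the promoter table. That table also covers genes that were not tested, whereas every gene of the list passed the filter, so the shares come from unlike sets. The matches were in 4 of 8 hydrolases, 3 of 4 membrane and pump genes, 3 of 13 core genes and 1 of 5 MiT/TFE and FLCN genes, and in 0 of 5 receptors and 0 of 4 ATG8 genes. Of the genes that rose in the Ythdf1 knockout 8 of 24 held it (33.3%), of those that fell 1 of 4 (Atg3), and of those not called 2 of 11 (18.2%). The shorter E-box was found in 13 of 39 (33.3%), against 8.09% of all genes. Split by the same calls, it was in 8 of 24 genes that rose (33.3%), 1 of 4 that fell and 4 of 11 not called (36.4%). The amino acid response element TTGCATCA was in 0 of 39, against 1.03%, and the antioxidant response element TGACNNNGC in 8 of 39 (20.5%), against 14.0%. A match describes letters in this window and is not evidence that a factor binds there.

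One match from each of 8 genes that rose in the Ythdf1 knockout is printed to show the shared letters, chosen after the values were seen, with 8 bases on either side and the extended E-box in capitals (GRCm38.p6, 5′ to 3′ on the strand of the gene). The run TCACGTGA holds the motif on both strands.
Atg7, chr6:114670955-114670977: attggtggTCACGTGtgcagtaa
Atg14, chr14:47568421-47568443: caaaatccCACGTGActggccct
Ctsa, chr2:164833752-164833775: gcaaactgTCACGTGAtgcagatg
Ctsd, chr7:142387911-142387934: cccgcgtcTCACGTGAcccgttga
Gla, chrX:134601185-134601208: gatctcggTCACGTGAgcaactct
Lamp1, chr8:13159137-13159159: tgaccacaTCACGTGcggaacgg
Mcoln1, chr8:3500465-3500488: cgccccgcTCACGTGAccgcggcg
Atp6v0d1, chr8:105566053-105566076: tactgcggTCACGTGAgacgcggt

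Other genes of the pathway were taken from further lists. In the Ythdf1 knockout the share called was 56.2% for other autophagy machinery, 57.1% for other receptors, 73% for other hydrolases, 66.7% for other lysosomal membrane proteins, 71.4% for other V-ATPase subunits and 56.2% for mTORC1 and its regulators, beside the 46.5% of all genes. In the Usp5 knockout these shares ran from 7.14% to 31.2%, beside 19.8% of all genes. Of 32 other genes of the autophagy machinery 14 rose and 4 fell in the Ythdf1 knockout, while 3 rose and 7 fell in the Usp5 knockout. Trp53inp2, whose product brings LC3 out of the nucleus, rose in the Ythdf1 knockout (log2 fold change 1.02, SE 0.0858, adjusted p = 1.91e-05), as did Wdr45, a WIPI protein (log2 fold change 0.89, SE 0.0848, adjusted p = 3.52e-05). Stx17, the SNARE of the closed autophagosome, fell there (log2 fold change -0.73, SE 0.0826, adjusted p = 9.92e-05), and so did the scramblase Tmem41b (log2 fold change -0.54, SE 0.0987, adjusted p = 0.00151). Rubcn, which restrains autophagosome maturation, rose in the Usp5 knockout (log2 fold change 0.57, SE 0.0749, adjusted p = 0.000547) together with the SNARE Snap29 (log2 fold change 0.50, SE 0.108, adjusted p = 0.0092). Trp53inp1, a p53 target that binds LC3, fell in the Usp5 knockout (log2 fold change -0.88, SE 0.112, adjusted p = 0.00043). Vmp1, another scramblase, was called lower (log2 fold change -0.44, SE 0.118, adjusted p = 0.0264), but not without Usp5 knockout replicate 1 or 2 or control replicate 2 (adjusted p between 0.0501 and 0.0856).

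The other selective receptors and adaptors were divided in the Ythdf1 knockout, where 4 of 14 rose and 4 fell. Bnip3, a mitophagy receptor induced by hypoxia, averaged 22.0 ± 2.37 CPM in the Usp5 knockout, 6.84 ± 0.604 CPM in the Ythdf1 knockout and 36.3 ± 2.33 CPM in the control (SD, n = 3 each). It fell in the Ythdf1 knockout (log2 fold change -2.41, SE 0.111, adjusted p = 4.37e-07), further than any of the 47 genes, and was the 1 receptor of this list called in the Usp5 knockout, where it fell (log2 fold change -0.72, SE 0.102, adjusted p = 0.000846). Its homolog Bnip3l averaged 62.9 ± 5.67 CPM in the Usp5 knockout, 35.7 ± 1.61 CPM in the Ythdf1 knockout and 66.2 ± 4.13 CPM in the control, and fell in the Ythdf1 knockout (log2 fold change -0.89, SE 0.0889, adjusted p = 4.62e-05). Tex264, a receptor for the endoplasmic reticulum, rose in the Ythdf1 knockout (log2 fold change 0.71, SE 0.0814, adjusted p = 0.00011). Fkbp8, a mitochondrial protein that binds LC3, was called higher there (log2 fold change 0.44, SE 0.145, adjusted p = 0.0303). With the correction for GC content and length Fkbp8 was at -0.02 (adjusted p = 0.834), and without Usp5 knockout replicate 2, Ythdf1 knockout replicate 1 or 3, or control replicate 2 or 3 its adjusted p lay between 0.055 and 0.131.

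Of 41 other lysosomal hydrolases 37 were tested, and 24 rose and 3 fell in the Ythdf1 knockout, against 4 and 4 in the Usp5 knockout. Galns, which degrades keratan sulfate, rose in the Ythdf1 knockout (log2 fold change 0.97, SE 0.0969, adjusted p = 4.62e-05), as did Naglu, which degrades heparan sulfate (log2 fold change 0.80, SE 0.176, adjusted p = 0.00429). The protease Ctsh fell in the Ythdf1 knockout (log2 fold change -0.77, SE 0.174, adjusted p = 0.00479) and in the Usp5 knockout (log2 fold change -1.31, SE 0.177, adjusted p = 0.000615), and beta-mannosidase, Manba, fell in the Ythdf1 knockout (log2 fold change -0.75, SE 0.0929, adjusted p = 0.000163). The acid lipase Lipa rose in the Usp5 knockout (log2 fold change 0.70, SE 0.0929, adjusted p = 0.000578), where the protease Ctsf fell (log2 fold change -0.90, SE 0.177, adjusted p = 0.00595). Galns was called higher in the Usp5 knockout as well (log2 fold change 0.40, SE 0.0967, adjusted p = 0.0164), but not without Usp5 knockout replicate 1 or control replicate 1 or 2 (adjusted p between 0.058 and 0.0812).

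For 18 other lysosomal membrane proteins tested, 10 rose and 2 fell in the Ythdf1 knockout, against 1 and 1 in the Usp5 knockout. Cd63, a tetraspanin of late endosomes, rose in the Ythdf1 knockout (log2 fold change 0.87, SE 0.147, adjusted p = 0.000922) together with Hgsnat, an acetyltransferase of heparan sulfate breakdown (log2 fold change 0.81, SE 0.0909, adjusted p = 9.57e-05). Abcb9, a peptide transporter, fell in the Ythdf1 knockout (log2 fold change -0.53, SE 0.124, adjusted p = 0.0059) and in the Usp5 knockout (log2 fold change -0.74, SE 0.124, adjusted p = 0.00238), and the cation channel Tpcn2 fell in the Ythdf1 knockout (log2 fold change -0.49, SE 0.106, adjusted p = 0.00393). Its relative Tpcn1 was called higher in the Usp5 knockout (log2 fold change 0.47, SE 0.114, adjusted p = 0.0159), but not without Usp5 knockout replicate 2 or control replicate 1 or 2 (adjusted p between 0.0636 and 0.0689). Of 14 other V-ATPase subunits tested, 10 rose and none fell in the Ythdf1 knockout, led by Atp6v0b (log2 fold change 1.09, SE 0.169, adjusted p = 0.000586) and Atp6v0e (log2 fold change 0.85, SE 0.097, adjusted p = 0.000105) of the membrane sector. In the Usp5 knockout 1 subunit was called higher, Atp6v0a1 (log2 fold change 0.30, SE 0.0879, adjusted p = 0.0367), and 1 lower, Atp6v1e1 (log2 fold change -0.30, SE 0.0754, adjusted p = 0.0209). Atp6v0a1 was not called without Usp5 knockout replicate 2 or 3, Ythdf1 knockout replicate 1 or 3, or control replicate 1 or 2 (adjusted p between 0.0578 and 0.153), nor Atp6v1e1 without Usp5 knockout replicate 2 or control replicate 1 or 2 (adjusted p between 0.0753 and 0.0831).

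Among 32 tested genes of mTORC1 and its lysosomal regulators 11 rose and 7 fell in the Ythdf1 knockout, against 1 and 4 in the Usp5 knockout. Sesn2, a leucine sensor that restrains mTORC1 and is induced by stress, averaged 48.7 ± 1.49 CPM in the Usp5 knockout, 157 ± 4.16 CPM in the Ythdf1 knockout and 45.1 ± 1.41 CPM in the control (SD, n = 3 each), and rose in the Ythdf1 knockout (log2 fold change 1.80, SE 0.0671, adjusted p = 1.21e-07). Its relative Sesn1 fell in the Ythdf1 knockout (log2 fold change -0.93, SE 0.124, adjusted p = 0.000233), as did Depdc5, a subunit of the GATOR1 inhibitor of mTORC1 (log2 fold change -0.47, SE 0.142, adjusted p = 0.0208), though not without Ythdf1 knockout replicate 1 (-0.4, adjusted p = 0.0691). Akt1s1, which codes for the mTORC1 inhibitor PRAS40, rose in the Ythdf1 knockout (log2 fold change 0.97, SE 0.1, adjusted p = 5.78e-05). Deptor, an inhibitor bound to mTOR itself, averaged 25.4 ± 1.02 CPM in the Usp5 knockout, 12.3 ± 0.791 CPM in the Ythdf1 knockout and 10.3 ± 1.1 CPM in the control, and was the 1 gene of this list called higher in the Usp5 knockout (log2 fold change 1.30, SE 0.101, adjusted p = 1.62e-05). Sesn1 and Fnip2, the partner of folliculin related to Fnip1, were called lower in the Usp5 knockout (log2 fold change -0.44, SE 0.12, adjusted p = 0.028 and log2 fold change -0.35, SE 0.103, adjusted p = 0.0386). Neither call held without Usp5 knockout replicate 1 or 2 or control replicate 1 or 2 (adjusted p between 0.0723 and 0.16), and that of Fnip2 was also lost without Ythdf1 knockout replicate 1 (adjusted p = 0.0596) or 3 (adjusted p = 0.0595). With the correction for GC content and length, values in the Ythdf1 knockout fell by more than 1.5 times for Wdr45 (to 0.57), Tex264 (to 0.27), Naglu (to 0.53), Cd63 (to 0.38), Atp6v0b (to 0.63) and Akt1s1 (to 0.52), and the fall of Stx17 shrank to -0.42.

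The macrophage and leukocyte marker sum and the hepatoma marker sum were also highest in the Ythdf1 knockout, and their part in these results was not tested. Of the 7 hepatoma markers 5 (71.4%) were called higher there, beside 23.7% of all genes. In the Usp5 knockout 2 of them (28.6%) were called higher, beside 9.96% of all genes. Over the 3 Ythdf1 knockout libraries together Tyrobp had 0 counts and Adgre1 had 8. Exons of 17 of the 47 genes overlap a gene on the opposite strand and those of 4 overlap one on the same strand in the GENCODE M21 annotation. The sources used here do not say whether strand was used in counting, so reads from such pairs cannot be told apart. For Sqstm1 the overlapping gene, Mrnip, was listed with 126 to 242 counts per library, against at least 11348 for Sqstm1. Becn1 shared 43.9% of its exon bases with Cntd1, which was listed with 2 to 56 counts. Map1lc3b and Ctsb overlapped well expressed neighbours, Zcchc14 with 1789 to 4143 counts and Fdft1 with 1087 to 3601 counts. The shared part was 0.772% of the exon bases of Map1lc3b and 12.8% of those of Ctsb.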

How the data were processed

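RNA from 9 samples (3 Usp5 knockout, 3 Ythdf1 knockout, 3 control) had been sequenced from poly(A) libraries, per the labels' protocols. The authors deposited 1 table of estimated counts per gene, written as whole numbers, and listed gene lengths beside them. The submitters' processing notes name Salmon 1.9.0, STAR 2.7.10a and fastp 0.23.2 and genome build GRCm39, without roles. The annotation release is not stated there. Columns were matched to samples by description, and 0 columns were left unmatched.

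The main test was that of edgeR 4.0.16 under R 4.3.3 (TMM scaling, filterByExpr, quasi-likelihood test, all 9 samples, group as the only term), with Benjamini-Hochberg adjustment over 13661 genes and calls at an adjusted p under 0.05. Each knockout was compared with the control, and the knockouts with each other (Usp5 over Ythdf1). SEs were derived from the fold change and its F statistic. CPM are TMM-scaled, and levels between genes are compared per kilobase of the deposited length. Simulated counts with known changes were used to check the test. GC content and exon overlaps came from GENCODE M21 (build GRCm38) by gene identifier, and promoters from RefSeq (GRCm38.p6). Alternatives tried were DESeq2 1.42.0, limma-voom (limma 3.58.1), scaling by RLE or by library sizes alone, no filter or a filter at 1 CPM in 3 samples, a correction for GC content and length, fitting the 6 samples of 2 groups alone, a replicate block, and leaving out each library.

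Values in every sample are given for the 23 genes called in either knockout against control and past 0.5 in size on the log2 scale, and for Sqstm1, Map1lc3b, Tfeb, Lamp1 and Ctsd. Of each further pathway list up to 2 called genes per direction and knockout with at least 5 CPM are named. The 47 genes, their classes and the further lists were chosen with earlier results of these data known. Protein sequences were not used here.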

Additional observations from a re-analysis of the deposited data

Results flagged for a closer look

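In 4 of the 47 genes (8.51%) the knockouts were called in opposite directions against the control they share, as were 3.13% of all genes tested. Their direct differences, Usp5 knockout over Ythdf1 knockout (edgeR's quasi-likelihood test with Benjamini-Hochberg adjustment), are given as a description, since genes picked for opposite calls had to differ directly. Sqstm1, the p62 receptor, differed by -1.91 on the log2 scale (SE 0.128, adjusted p = 2.81e-06), with all 3 Usp5 knockout samples below and all 3 Ythdf1 knockout samples above the control samples. The ATG8 gene Gabarapl1 differed by -1.23 (SE 0.0749, adjusted p = 1.51e-06). Of the V-ATPase subunits, Atp6v0d1 differed by -1.47 (SE 0.078, adjusted p = 5.9e-07) and Atp6v1h by -0.69 (SE 0.0925, adjusted p = 0.000217). Against control, the opposite directions held in every such fit for Gabarapl1 and Atp6v0d1, while the Usp5 knockout calls of Sqstm1 and Atp6v1h and the Ythdf1 knockout call of Atp6v1h were lost without single libraries.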

How the results depend on the processing

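In the Usp5 knockout against control, where 3 genes were higher and 8 lower, leaving out 1 library gave 1 to 7 higher and 4 to 12 lower (1 higher without Usp5 knockout replicate 2 or control replicate 2, and 7 higher and 12 lower without control replicate 3). Library sizes alone gave 2 higher and 13 lower, and a fit of only the 2 groups 5 lower. Leaving out the 3 libraries lowest in GC-rich genes, chosen after seeing the data, gave 7 higher and 17 lower. In the Ythdf1 knockout against control, where 28 were higher and 6 lower, the correction for GC content and length gave 3 lower. Of all genes 2700 were called in the Usp5 knockout, against 1494 without control replicate 2, 1626 without Usp5 knockout replicate 2, 1756 with only the 2 groups, 4371 without control replicate 3 and 5489 without the 3 libraries. Library sizes alone set the median of all genes to -0.0968 in the Usp5 knockout and -0.121 in the Ythdf1 knockout, and the medians over the 47 genes to -0.225 in the Usp5 knockout, 0.232 in the Ythdf1 knockout and -0.367 between the knockouts. Without a filter the last 2 were 0.328 and -0.385, and the correction gave -0.326 between the knockouts. With 1 library left out the median ran from 0.304 to 0.396 in the Ythdf1 knockout and from -0.426 to -0.348 between the knockouts. Among genes called before or after the correction, it turned Rb1cc1 to 0.02 and Fnip1 to 0.3 in the Ythdf1 knockout against control. Between the knockouts it turned Ctsa to 0.02 and Ctsz to 0.14. The cause of these changes was not tested.

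Calls kept in every fit were 4 of 11 in the Usp5 knockout, 24 of 34 in the Ythdf1 knockout (21 higher and 3 lower) and 26 of 33 between the knockouts. The labels state no pairing of the replicate numbers. Deviations of same-numbered samples correlated at r from -0.257 to 0.298, above 0.1 in 4 of 9 pairs. Those of replicate 1 were all positive (0.19, 0.298 and 0.127). Whether same-numbered samples shared a culture round or batch cannot be told from these values. A replicate block gave 2 higher and 6 lower in the Usp5 knockout and 29 higher and 5 lower in the Ythdf1 knockout. The depth of 24760877 counts or more left Mitf, at 1.41 to 3.78 CPM, the least precisely measured.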
